A study of Mus musculus with 100 samples.

Results

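The 10 genes described here are 4 Wnt ligands (Wnt3, Wnt3a, Wnt5a and Wnt8a) and 6 genes known as targets or feedback regulators of the Wnt pathway (Dkk1, Axin2, Nkd1, Tcf7, Lef1 and Sp5). They were taken by name from the 23109 gene-level entries of the RNA tables. The study asked what the enzymatic activity of MLL3 and MLL4 does in mouse embryos and in differentiating stem cells; these proteins methylate lysine 4 of histone H3, and their genes are Kmt2c and Kmt2d. RNA was measured in 37 libraries of mouse embryonic stem cells (ESCs), of cultures differentiated from them and of whole embryos, which form 18 groups (3 of 1 library, 11 of 2 and 4 of 3). In every setting KI was compared with its reference. Libraries held 18.9 to 59.9 M gene-level reads.

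All cultured cells carry the genotype Mll3-/-, the reference included. Reference cells are Mll4flox/flox (termed flox) and KI cells are Mll4KI/KI, represented by clones 27 and 48. The labels do not spell out what the KI alleles encode. ESCs (day 0) were kept in a medium with LIF, a MEK inhibitor and 3 µM of the GSK3 inhibitor CHIR99021, and embryoid bodies (EBs) were grown from them without LIF and sampled at days 4 and 10. Neural cultures received 5 µM retinoic acid after day 4 and were sampled at day 8, as progenitor aggregates, and at day 16, after plating in medium for neurogenesis. Trophectoderm cultures were sampled at day 6 after infection with a doxycycline-inducible lentiviral vector, for which the sample titles name Cdx2. Extraembryonic endoderm (ExEn) cultures were sampled after 5 days with Activin A (10 ng/mL) and retinoic acid (0.1 µM). Whole embryos were taken at E8.5 and E9.5. KI embryos are Mll3flox/KI;Mll4flox/KI;Sox2-Cre and controls are Mll3flox/KI;Mll4flox/+;Sox2-Cre, so both groups carry the Mll3 KI allele and the Cre transgene. Sox2-Cre acts in the epiblast and its descendants, so extraembryonic cells of these embryos may keep the floxed alleles. In the ESC and EB series flox has 1 library per day, and in the other cultures it has 2. Whether those 2 libraries came from separate cultures is not given, so p-values measure the spread between these libraries, which may be technical for flox and lies between clones for KI.

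Wnt ligands are secreted lipid-modified proteins that bind Frizzled receptors and LRP co-receptors. In the canonical branch this halts a destruction complex built on axin, APC and the kinase GSK3, so β-catenin accumulates and joins TCF and LEF proteins on DNA. Inhibitors of GSK3 such as CHIR99021 stabilise β-catenin without a ligand, and the pathway is known for its roles in self-renewal of mouse ESCs, in formation of the primitive streak and in growth of the tail bud and the dorsal neural tube. Wnt5a is the member best known for signalling that does not pass through β-catenin.

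Kmt2c, the gene of MLL3, and Kmt2d, the gene of MLL4, were detected in all libraries. Kmt2c lay between 28.6 and 107 counts-per-million (CPM) in cultures and between 32.6 and 58.9 CPM in embryos, and Kmt2d lay between 143.6 and 343 CPM in cultures and between 140.7 and 212 CPM in embryos. One value per transcript does not tell alleles apart, so these levels do not check the genotype labels. Replicate pairs were compared by a chi-square of their counts, and the flox pair of neural day 8 was the closest of 23 pairs, with 1.5 per degree of freedom, whereas the KI pair of neural day 16 was the most distant, with 54.8. Marker genes matched the labels in part. The pluripotency markers summed to 5378 to 6429 CPM in ESCs and to 32.6 to 75.2 CPM in neural cultures. Neuron markers summed to 3693 to 7479 CPM at neural day 16, and trophoblast markers to 3262 to 5994 CPM in trophectoderm. Trophoblast markers also reached 3281 to 5084 CPM in ExEn cultures. Krt8 (1896 to 2410 CPM) and Krt18 (1170 to 1973 CPM) made up most of that sum, as they did in trophectoderm. Elf5 (0 to 0.210 CPM) and Cdx2 (2.25 to 3.99 CPM) were low in ExEn cultures, while Gata3 lay at 20.6 to 80.0 CPM. Extraembryonic endoderm markers summed to 6204 to 6311 CPM in flox ExEn cultures and 3401 to 3588 CPM in KI. Apoa1 and Ttr of that list were at 3 reads or fewer in both KI libraries.

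In flox ESCs 3 of the 6 target or feedback genes were high. On the per-length scale (RPKM as deposited, the only scale on which levels of different genes are set side by side here), Sp5 stood at 23.9, Tcf7 at 20.4 and Axin2 at 18.7 in the flox ESC library. Sp5 is a zinc finger transcription factor that is a direct target of β-catenin, Tcf7 encodes one of the DNA-binding partners of β-catenin, and Axin2 is the feedback scaffold of the destruction complex. The next gene, Lef1, another DNA-binding partner of β-catenin, was at 2.68 RPKM, and each of the other 6 members was at 0.302 RPKM or less. In flox ESCs Sp5, Tcf7 and Axin2 were thus high, while RNA of all 4 ligands was low. The medium with CHIR99021 and the stem cell state come together at day 0 and cannot be told apart. In flox EBs of day 4 Sp5, Tcf7 and Axin2 stood at 47.8, 22.5 and 15.9 RPKM.

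At EB day 4 the per-length order in the flox library was Sp5 (47.8 RPKM), Lef1 (22.8), Tcf7 (22.5), Wnt3 (19.6), Axin2 (15.9) and Wnt5a (14.2). By EB day 10, Wnt5a was first at 18.5 RPKM, followed by Nkd1 at 12.65. Nkd1, a Dishevelled-binding feedback inhibitor, also led in flox neural cultures, with 11.2 ± 0.129 RPKM at day 8 and 13.6 ± 1.36 RPKM at day 16 (SD, n = 2 each). Tcf7 led in flox trophectoderm (17.4 ± 0.480 RPKM) and in flox ExEn (16.9 ± 0.119 RPKM). In control embryos the highest members at E8.5 were Lef1 (20.8 ± 1.65 RPKM, SD, n = 3), Tcf7 (19.0 ± 0.971) and Nkd1 (17.7 ± 1.97), whose ranges of 1 SD touch. At E9.5 the first 2 were Axin2 (17.3 ± 0.583) and Nkd1 (16.7 ± 0.483), which also differ by less than their summed SDs.

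Across the 18 groups the 10 genes had their highest means in 5 groups, now in CPM scaled between libraries. Sp5, Wnt3 and Tcf7 had their highest mean in KI EBs of day 4 (147, 89.5 and 77.8 CPM, n = 2), Axin2 in flox ESCs (127.5 CPM), Wnt5a in KI EBs of day 10 (224 CPM), and Lef1, Dkk1 and Wnt8a in flox EBs of day 4 (77.4, 29.9 and 28.9 CPM). Wnt3a (18 CPM) and Nkd1 (97.3 CPM) were highest in control embryos of E8.5. The neighbours in this order were often close, as for Wnt3, Sp5 and Tcf7, where a flox culture of 1 library came second: 84.6 CPM for Wnt3 and 138.5 CPM for Sp5 in flox EBs of day 4, and 72.9 CPM for Tcf7 in flox ESCs. KI neural cultures of day 16 held the lowest mean of 5 members (Dkk1 0.104, Axin2 16.6, Tcf7 0.916, Lef1 0.605 and Sp5 0.159 CPM), while Wnt8a was at 0 reads both there and in flox EBs of day 10. Axin2, Nkd1, Tcf7, Lef1, Sp5, Wnt3 and Wnt5a were above 3 reads in all 37 libraries, Dkk1 in 36, Wnt3a in 31 and Wnt8a in 26.

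**Figure D1:**
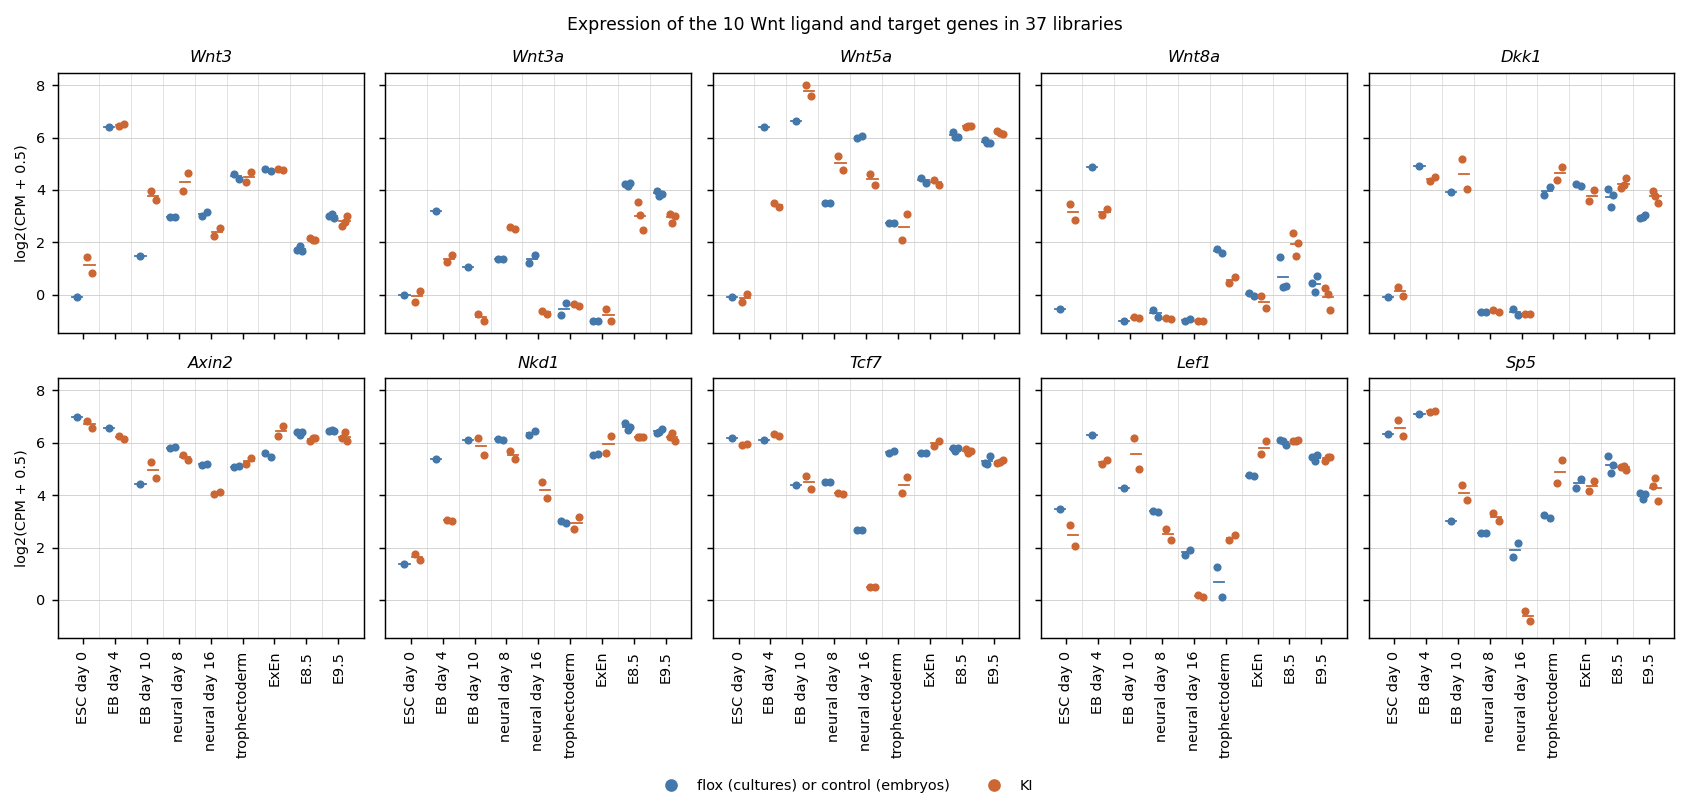
Expression of the 10 genes as log2(CPM + 0.5) in each of the 37 libraries (points), with the group mean as a short line; blue is flox or control and orange is KI, and the 9 stages run along the x axis. Wnt5a runs from a mean of 224 CPM in KI EBs of day 10 to 0.419 CPM in KI ESCs, Sp5 from 147 CPM in KI EBs of day 4 to 0.159 CPM in KI neural cultures of day 16, and Wnt8a is near the lower edge in neural cultures.

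The promoters of 3 members are shown because their genes behaved differently in what follows: Sp5 and Wnt3a had the largest falls in KI neural cultures, and Dkk1 rose in KI trophectoderm and at E9.5. Each line gives the 250 bases before the annotated start on the gene's strand, 5′ to 3′, from RefSeq (GRCm38.p6). The windows are chr2:70474673-70474922 (plus strand) for Sp5, chr19:30549497-30549746 (minus strand) for Dkk1 and chr11:59290752-59291001 (minus strand) for Wnt3a. Capitals mark matches to CTTTGAA or CTTTGAT, a core TCF and LEF recognition motif, searched on both strands.
Sp5: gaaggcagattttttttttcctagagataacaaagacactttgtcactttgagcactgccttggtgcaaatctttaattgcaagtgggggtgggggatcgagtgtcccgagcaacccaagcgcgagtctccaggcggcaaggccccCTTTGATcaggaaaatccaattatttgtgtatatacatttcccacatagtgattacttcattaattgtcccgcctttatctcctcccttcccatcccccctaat
Dkk1: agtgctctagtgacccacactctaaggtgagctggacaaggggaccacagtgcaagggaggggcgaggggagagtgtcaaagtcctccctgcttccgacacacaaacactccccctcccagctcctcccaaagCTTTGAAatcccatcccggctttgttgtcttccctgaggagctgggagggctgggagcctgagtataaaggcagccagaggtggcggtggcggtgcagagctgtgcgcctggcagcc
Wnt3a: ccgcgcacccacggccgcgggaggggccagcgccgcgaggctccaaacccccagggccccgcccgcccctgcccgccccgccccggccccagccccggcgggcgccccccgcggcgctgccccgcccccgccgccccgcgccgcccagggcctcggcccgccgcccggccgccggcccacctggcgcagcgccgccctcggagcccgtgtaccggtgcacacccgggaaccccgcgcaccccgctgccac
The match in Sp5 begins 104 bases before the start and that in Dkk1 begins 117 bases before it. The 8 members with a window had 12 windows of 300 bases in all, which add 50 bases after the start (4 of them of Lef1 and 2 of Tcf7). Of these 12 windows 2 held a match, those of Sp5 and Dkk1, beside 8.65% of all 32851 windows. Wnt5a and Wnt8a are named only. A match is a run of letters and not a measured binding site, and the windows without one say nothing about distal elements.

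In neural cultures every tested member was called at both days. At day 8 the ligands Wnt3, Wnt3a and Wnt5a rose in KI by 1.37 to 1.63 on the log2 scale, together with Sp5, while the feedback genes Axin2 and Nkd1 and the β-catenin partner genes Tcf7 and Lef1 fell by 0.35 to 0.91. At day 16 every tested member was lower in KI, and Wnt3a and Sp5 were lower by about 4 on the log2 scale. Dkk1, the secreted inhibitor of the LRP co-receptors, and Wnt8a were too low in neural cultures to be tested, at 0.0813 to 0.190 CPM and 0 to 0.173 CPM. In bulk RNA, here and in all other comparisons, fewer cells of a type and less RNA per cell cannot be told apart.

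At day 8 all 8 tested members were called (edgeR quasi-likelihood test, Benjamini-Hochberg adjusted p under 0.05 over all genes), 4 higher and 4 lower in KI, where 19.5% of all tested genes were called, 6.3% higher and 13.2% lower. Wnt3, a ligand required for primitive streak formation, measured 7.43 and 7.31 CPM in flox and 15.2 and 24.4 CPM in KI (log2 fold change, given throughout as KI minus reference, 1.44 with a standard error, SE, of 0.19, edgeR adjusted p = 0.000198). Wnt3a, a ligand of the late streak, tail bud and dorsal neural tube, measured 2.05 and 2.10 CPM in flox against 5.54 and 5.12 CPM in KI (1.37, SE 0.18, adjusted p = 0.000150). Wnt5a was 10.7 and 10.8 CPM in flox and 39.3 and 26.8 CPM in KI (1.63, SE 0.18, adjusted p = 5.27e-05). Both KI clones lay above both flox libraries for all 3 ligands, as they did for 30.4% of all tested genes, and for Wnt3 and Wnt5a the clones differed from each other far more than the flox pair did. The annotated Wnt3 overlaps Wnt9b, and the use of strand is not given, so reads of those genes may be mixed.

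Lef1 was the most lowered member at day 8, with 10.1 and 9.67 CPM in flox and 6.08 and 4.38 CPM in KI (-0.91, SE 0.17, edgeR adjusted p = 0.00191). Tcf7 was 22.4 and 22.1 CPM in flox and 16.6 and 15.98 CPM in KI (-0.44, SE 0.10, adjusted p = 0.00948), and its annotated gene overlaps Skp1. Tcf7 and Lef1 lay lower in both clones. The 2 further genes of the TCF and LEF family, looked up after the values of these were seen, went the other way at day 8, with Tcf7l1 at 0.39 (SE 0.13, adjusted p = 0.0489) and Tcf7l2 at 1.01 (SE 0.17, adjusted p = 0.00103). Axin2 measured 55.3 and 56.2 CPM in flox against 46.4 and 40.3 CPM in KI (-0.35, SE 0.10, adjusted p = 0.0232), and Nkd1 70.3 and 69.1 against 51.5 and 41.6 CPM (-0.57, SE 0.17, adjusted p = 0.0354). Sp5 went the other way, from 5.35 and 5.34 CPM in flox to 9.46 and 7.57 CPM in KI (0.68, SE 0.22, adjusted p = 0.0453). Flox and KI libraries did not overlap for Lef1, Tcf7, Axin2, Nkd1 or Sp5, nor did they for 65.3% of all tested genes.

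The day 8 calls of Axin2, Nkd1, Tcf7 and Sp5 rest on the full set of libraries. Without flox replicate 1, flox replicate 2 or KI clone 48, 4 members stayed called, and without KI clone 27, 6 did. Sp5 lost its call without any 1 of these 4 libraries (adjusted p 0.0796 to 0.301) and with counts summed over transcripts (0.0575), Nkd1 without any 1 of them (0.05004 to 0.258) and with no filter on low counts (0.0567), and Axin2 and Tcf7 without either flox library or clone 48 (0.145 to 0.181 and 0.0657 to 0.130). Wnt3, Wnt3a, Wnt5a and Lef1 kept their calls under each of the 9 alternatives tried.

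At day 16 all 8 tested members were lower in KI and called, where 46.9% of all tested genes were called, 27.1% higher and 19.7% lower. The members' median log2 fold change was -2.21, beside 0.09 for all tested genes. Wnt3a was 1.82 and 2.33 CPM in flox and 0.151 and 0.100 CPM in KI, the latter being 7 and 5 reads (-3.98, SE 0.30, edgeR adjusted p = 1.12e-06). Sp5 was 2.58 and 4.07 CPM in flox and 0.238 and 0.0803 CPM in KI, or 11 and 4 reads (-4.34, SE 0.38, adjusted p = 3.21e-06; -5.27 without KI clone 27 and -3.73 without clone 48). These genes with RNA in flox were close to the counting floor in both clones. There a count of 0 allows up to 3 reads, or 0.0501 CPM without TMM scaling in the deepest library.

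Tcf7 and Lef1 were also far lower at day 16, and Tcf7l1 (-1.15, SE 0.13, edgeR adjusted p = 3.42e-05) and Tcf7l2 (-1.57, SE 0.19, adjusted p = 4.44e-05) fell as well. Tcf7 measured 5.81 and 5.94 CPM in flox and 0.909 and 0.924 CPM in KI (-2.65, SE 0.14, edgeR adjusted p = 8.03e-08). Lef1 measured 2.81 and 3.25 CPM in flox and 0.627 and 0.582 CPM in KI (-2.29, SE 0.23, adjusted p = 1.02e-05). For both genes the 2 clones were close to each other and well below flox. Of the feedback genes, Nkd1 stood at 77.9 and 88.1 CPM in flox and at 22.3 and 14.5 CPM in KI (-2.14, SE 0.18, adjusted p = 4.54e-06). Axin2 stood at 35.5 and 36.3 CPM in flox and at 16.1 and 17.0 CPM in KI (-1.09, SE 0.10, adjusted p = 5.45e-06). No KI library of either gene reached a flox library, as for 30.9% of all tested genes.

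Among the ligands at day 16, Wnt5a was 62.7 and 65.9 CPM in flox and 23.97 and 17.8 CPM in KI (-1.59, SE 0.17, edgeR adjusted p = 2.51e-05). Wnt3 was 7.55 and 8.43 CPM in flox and 4.28 and 5.34 CPM in KI (-0.70, SE 0.20, adjusted p = 0.0150). The Wnt3 call was lost without either flox library (adjusted p 0.0581 without replicate 1, log2 fold change -0.77, and 0.117 without replicate 2, -0.62) or without KI clone 27 (0.111, -0.55), and 7 members then stayed called. In flox the 3 ligands differed in their course, since Wnt5a went from 10.7 and 10.8 CPM at day 8 to 62.7 and 65.9 CPM at day 16, while Wnt3 and Wnt3a were close to their day 8 values. In KI all 3 were lower at day 16 than at day 8 in both clones.

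The change in the KI effect between the days was tested as an interaction in the same fit. All 8 members were called, all in the negative direction, where 33.2% of all tested genes were called (19.2% positive and 14% negative). The differences ran from -0.74 (SE 0.14, edgeR adjusted p = 0.00172) for Axin2 to -5.35 (SE 0.35, adjusted p = 1.46e-06) for Wnt3a, with -5.02 (SE 0.44) for Sp5 (-5.95 without KI clone 27 of day 16 and -4.42 without clone 48), -3.22 (SE 0.25) for Wnt5a and -2.13 (SE 0.28) for Wnt3. Sp5 and the 3 ligands changed from higher to lower in KI, and Axin2, Nkd1, Tcf7 and Lef1 went further down. KI clones appear at both days. A fit with the line as a block also called all 8 members.

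**Figure D2:**
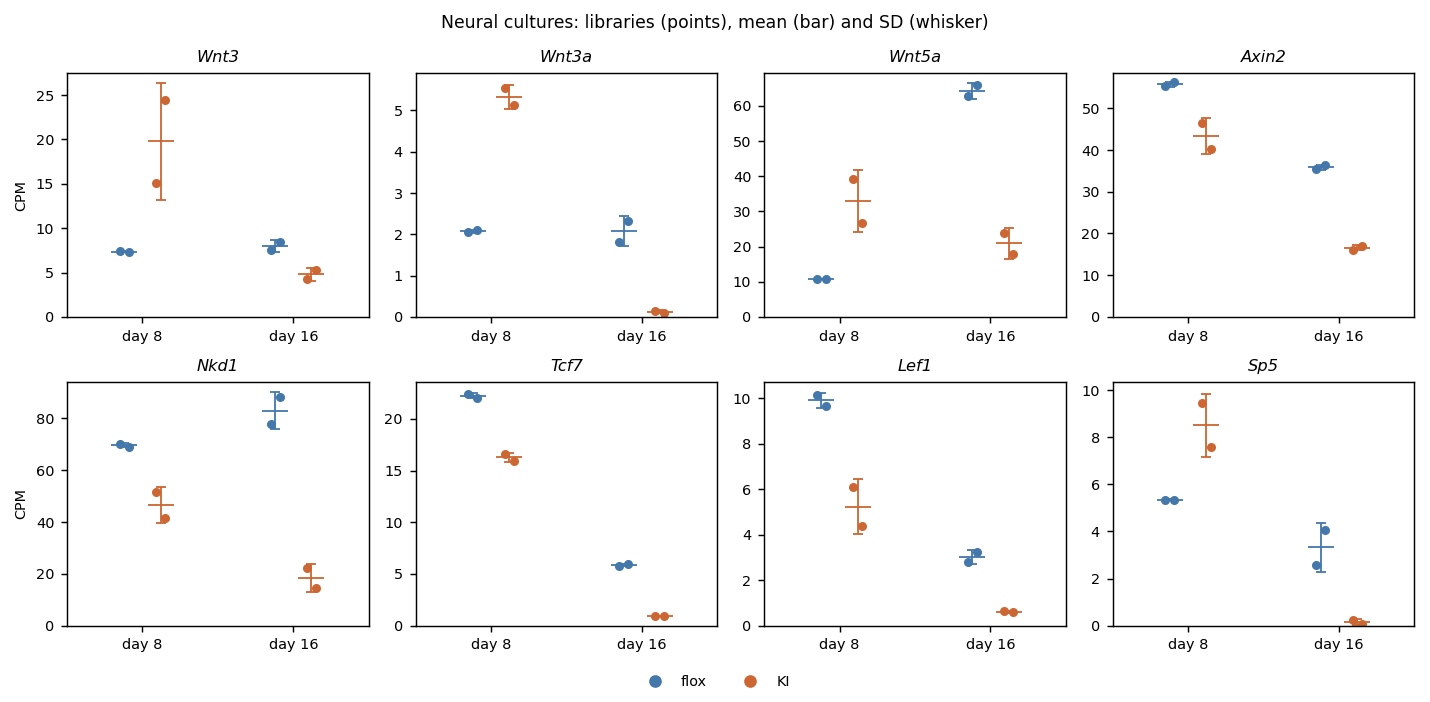
CPM of the 8 tested members in neural cultures at days 8 and 16, with 1 point per library, the mean as a bar and the SD as a whisker (n = 2 per group; blue flox, orange KI; each y axis starts at 0). The orange points lie above the blue ones at day 8 for Wnt3, Wnt3a, Wnt5a and Sp5 and below them for all 8 genes at day 16.

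Markers of other cell types moved with the day 16 result. All 7 neuron markers were called higher in KI (summed 6712 to 7479 CPM against 3693 to 3965 in flox), all 6 mesenchyme markers were called lower (830 to 1019 against 3498 to 3760 CPM), and 3 of 4 roof plate markers were called lower (6.71 to 7.07 against 13.3 to 15.4 CPM). Extraembryonic endoderm markers summed to 235 to 356 CPM in KI against 701 to 749 CPM in flox, with 6 of 11 tested genes called lower and 1 higher, and trophoblast markers to 4.34 to 4.93 against 16.5 to 20.9 CPM, with 4 of 7 called lower. Pluripotency markers summed to 47.7 to 61.2 CPM in KI and 72.7 to 75.2 CPM in flox. The roof plate is the dorsal midline of the neural tube and a known source of Wnt ligands. At day 8, 5 of 7 neuron markers, 5 of 6 mesenchyme markers and 9 of 11 tested extraembryonic endoderm markers were called lower, while the roof plate sum was 191 to 210.5 CPM in KI and 164.5 to 164.6 CPM in flox, with 1 gene called higher and 1 lower (Wnt1 at 127.6 to 152.9 against 61.7 to 62.96 CPM, Msx1 at 55.9 to 62.3 against 98.99 to 100.5 CPM). Pluripotency markers summed at day 8 to 50.9 to 52.9 CPM in KI and 32.6 to 33.6 CPM in flox. Of these, 2 of 7 tested were called higher and 3 lower. Blood markers summed at day 8 to 1.37 to 1.62 CPM in KI against 11.4 to 11.5 CPM in flox, and heart markers to 1.21 to 1.36 against 2.61 to 2.83 CPM. The part of these cell types in the results was not tested.

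The wider pathway list holds 79 other genes of the Wnt pathway, of which 73 were tested in neural cultures. At day 16, 53 of them were called, 9 higher and 44 lower, with a median log2 fold change of -0.67, beside 46.9% of all tested genes called and 19.7% called lower. By role, and with members counted in, 13 of 17 tested ligands fell and 1 rose, 13 of 15 receptors fell and none rose, and 7 of 9 genes of receptor turnover and R-spondin signalling fell. Of 9 tested secreted antagonists 7 fell. Cytoplasmic genes were mixed, with 4 of 14 higher and 6 lower. At day 8, 33 of the 73 were called, 13 higher and 20 lower, beside 19.5% of all tested genes called, 6.3% higher and 13.2% lower. The 17 tested ligands then had 7 calls higher and 6 lower.

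The most lowered genes of the wider list at day 8 were Rspo1, a secreted enhancer of Wnt signalling (29.3 and 31.8 CPM in flox, 2.13 and 1.94 CPM in KI, log2 change -3.90, SE 0.14, edgeR adjusted p = 3.3e-08), and its relative Rspo2 (-2.996, SE 0.39, adjusted p = 0.000150). The ligands Wnt10b (1.87, SE 0.18, adjusted p = 1.25e-05) and Wnt7a (1.75, SE 0.14, adjusted p = 3.56e-06) were the most raised. At day 16 the most lowered were Notum, a secreted enzyme that removes the lipid of Wnt proteins (1.48 and 1.60 CPM in flox, 0.0865 and 0.161 CPM in KI, -3.56, SE 0.32, adjusted p = 4.76e-06), and Wnt9a (-3.22, SE 0.16, adjusted p = 4.89e-08). Sp8, a relative of Sp5, was higher in KI at 1.86 and 1.23 CPM against 0.304 and 0.244 CPM (2.48, SE 0.29, adjusted p = 3.26e-05). Fgf8, a secreted growth factor of streak and brain, was called higher at 0.260 and 0.321 CPM against 0.133 and 0.0542 CPM (1.55, SE 0.55, adjusted p = 0.0374), but on at most 16 reads per library, and 5 of 9 alternatives lost that call (adjusted p up to 0.272); without flox replicate 1 the change was 2.401.

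**Figure D3:**
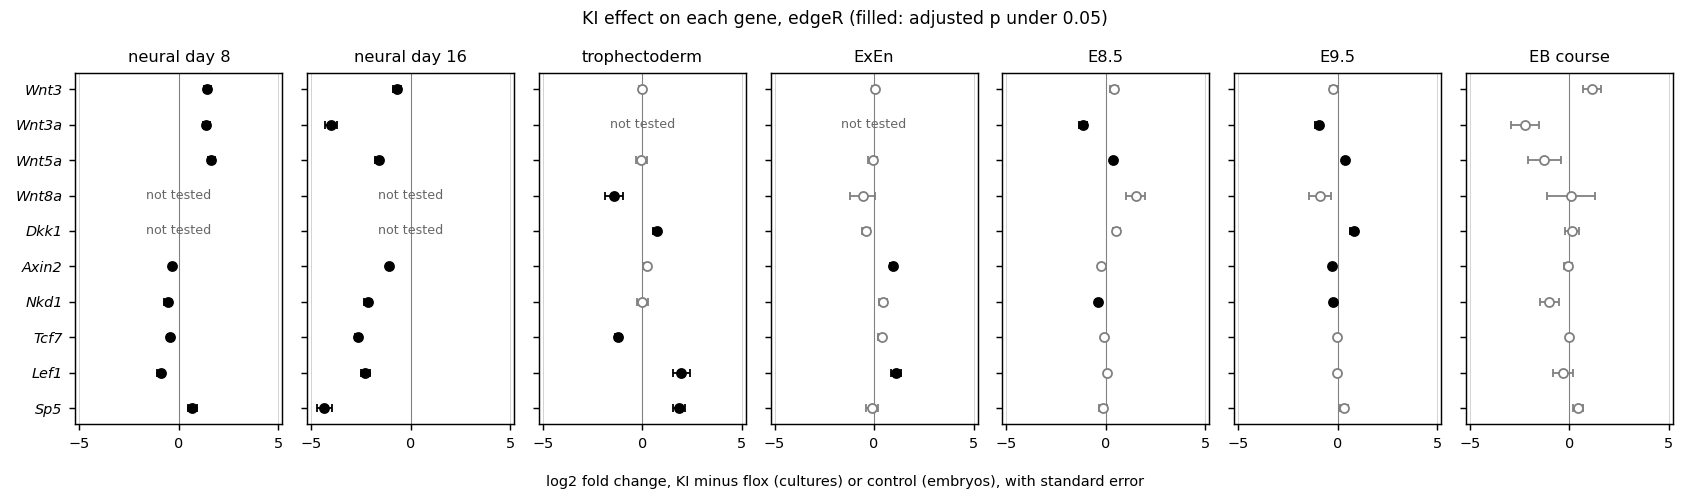
Log2 fold change of KI minus flox or control with its standard error for each of the 10 genes in 7 comparisons; filled points are called by edgeR at an adjusted p under 0.05. The day 16 panel has all 8 tested genes to the left of 0, the embryo panels have Wnt3a to the left and Wnt5a to the right, and the EB course has no filled point.

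In trophectoderm Lef1 rose in KI and Tcf7 fell, while their relatives Tcf7l1 (0.90, SE 0.12, edgeR adjusted p = 0.000203) and Tcf7l2 (0.54, SE 0.10, adjusted p = 0.000532) rose. Sp5 and Dkk1 rose and Wnt8a fell. Axin2 and Nkd1, the feedback genes, and the ligands Wnt3 and Wnt5a were not called, and Wnt3a was too low to be tested (2 to 8 reads per library). In all, 5 of 9 tested members were called, 3 higher and 2 lower, close to the 50.9% of all tested genes that were called (26.7% higher and 24.2% lower), so the share of members is near the background.

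Sp5 measured 8.91 and 8.19 CPM in flox trophectoderm and 21.4 and 39.7 CPM in KI (log2 change 1.85, SE 0.32, edgeR adjusted p = 0.00236). Lef1 measured 1.86 and 0.593 CPM in flox and 4.34 and 5.07 CPM in KI (1.96, SE 0.41, adjusted p = 0.00495). For Sp5 the clones differed from each other, and for Lef1 the flox libraries did, but the groups did not overlap for either gene. Tcf7 stood at 48.4 and 50.9 CPM in flox and at 16.5 and 25.5 CPM in KI (-1.23, SE 0.16, adjusted p = 0.000138). Dkk1 stood at 13.5 and 16.6 CPM in flox and at 20.5 and 28.8 CPM in KI (0.72, SE 0.18, adjusted p = 0.00458). Wnt8a stood at 2.89 and 2.48 CPM in flox and at 0.860 and 1.09 CPM in KI (-1.45, SE 0.45, adjusted p = 0.0157). These 3 genes did not overlap either, but neither did 76% of all tested genes.

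Single libraries decided some of these calls and values. The flox libraries of Lef1 lay apart, so its change was 2.96 without flox replicate 1 and 1.31 without flox replicate 2 (adjusted p = 0.000128 and 0.00526). Without flox replicate 1, 3 members stayed called, and both Dkk1 (0.56, adjusted p = 0.0741) and Wnt8a (-1.36, adjusted p = 0.0874) lost theirs. Dkk1 (0.44, adjusted p = 0.0603) and Lef1 (1.83, adjusted p = 0.0551) lost theirs without KI clone 48, and Wnt8a without clone 27 (-1.30, adjusted p = 0.0771). Wnt5a, at 6.14 and 6.15 CPM in flox, lay at 3.798 CPM in clone 27 and 7.93 CPM in clone 48, so its log2 fold change of -0.06 (SE 0.27, adjusted p = 0.881) became -0.70 (adjusted p = 0.0131) without clone 48 and 0.36 (adjusted p = 0.139) without clone 27. Of the members not called, Axin2 (0.23, SE 0.13), Nkd1 (0.00, SE 0.26) and Wnt3 (-0.02, SE 0.13) had adjusted p from 0.175 to 0.998.

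Of the wider list, 48 of 72 tested genes were called in trophectoderm, 23 higher and 25 lower, beside 50.9% of all tested genes called. The list also has a role of further target genes (Sp5, Sp8, T, Cdx1, Cdx4, Ccnd1, Myc, Tbx6, Msgn1 and Fgf8), and 6 of these 10 were called, all higher in KI, where 26.7% of all tested genes were called higher. Tcf7, listed with the nuclear genes, was called lower. The streak transcription factor T was at 33.9 and 75.5 CPM in KI against 4.52 and 8.00 CPM in flox (3.13, SE 0.48, edgeR adjusted p = 0.00316), a call lost in 1 of 9 alternatives, the fit on trophectoderm libraries alone (adjusted p = 0.0715), and its change was 2.43 without clone 48. Msgn1, a presomitic mesoderm factor, had 123 reads in KI and 2 in flox, a ratio of 57.1 with a 95% counting interval of 15.5 to 476. Rspo2 (-2.79, SE 0.59, adjusted p = 0.00119) and the receptor Fzd9 (-2.06, SE 0.40, adjusted p = 0.000598) were the most lowered. Beside these values, 6 of 8 tested markers of primitive streak and presomitic mesoderm were called higher in KI, and 6 of 8 pluripotency markers lower. Of 9 trophoblast markers 7 were called higher and 1 lower. Elf5 of that list measured 15.45 to 18.4 CPM in flox and 0.788 to 1.62 CPM in KI. Cdx2, which the titles name for the vector, measured 26.1 to 28.8 CPM in flox and 100 to 105.8 CPM in KI. Whether RNA of the vector adds to the Cdx2 counts was not tested. Neural progenitor markers summed to 61.8 to 82.4 CPM in KI against 318 to 333 CPM in flox, neuron markers to 22.8 to 27.3 against 99.2 to 105.9 CPM, mesenchyme markers to 35.5 to 47.9 against 81.05 to 81.98 CPM, and extraembryonic endoderm markers to 1175 to 1247 against 869.7 to 886 CPM. The streak markers summed to 87.1 to 164.7 CPM in KI and 52.7 to 59.0 CPM in flox, with Mesp1 and Msgn1 at 3 reads or fewer in both flox libraries. Roof plate markers, mostly Msx1, summed to 11.8 to 19.1 CPM in KI and 2.19 to 2.46 CPM in flox. Heart markers summed to 2.51 to 3.03 CPM in KI and 7.41 to 8.40 CPM in flox. Their part in the result was not tested.

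In ExEn cultures Axin2 and Lef1 were called, of which Lef1 was also called, in the same direction, in trophectoderm. Axin2 rose in KI, at 75.4 and 99.7 CPM against 48.8 and 43.4 CPM in flox (log2 change 0.93, SE 0.13, edgeR adjusted p = 0.000182). Lef1 rose as well, at 47.1 and 66.7 CPM against 26.5 and 26.3 CPM (1.11, SE 0.26, adjusted p = 0.0116). For both genes the 2 KI clones lay above both flox libraries, as for 34.7% of all tested genes. These were 2 of 9 tested members, both higher, where 35.5% of all tested genes were called (18.1% higher). A count of 2 of 9 is too small to set apart from this background. Lef1 lost its call without either flox library (1.11, adjusted p = 0.0820 without replicate 1, and 1.101, adjusted p = 0.0827 without replicate 2) and under DESeq2 (1.103, adjusted p = 0.0806).

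Other members of the ExEn comparison moved by less. Tcf7 measured 48.4 and 48.9 CPM in flox and 59.1 and 66.8 CPM in KI (0.38, SE 0.16, edgeR adjusted p = 0.0926). Nkd1 measured 45.4 and 46.6 CPM in flox and 48.9 and 76.4 CPM in KI (0.45, SE 0.21, adjusted p = 0.133), and without clone 27 it passed the test (0.73, adjusted p = 0.000631), whereas without clone 48 it was 0.09 (adjusted p = 0.706). Neither gene overlapped between the groups, nor did 69.6% of all tested genes, and neither passed the test in the fit with trophectoderm. In a fit on the ExEn libraries alone, Tcf7 passed (0.37, adjusted p = 0.00587). Dkk1 measured 18.1 and 17.2 CPM in flox and 11.3 and 15.3 CPM in KI (-0.41, SE 0.19, adjusted p = 0.115) and passed without clone 48 (-0.64, adjusted p = 0.0270) but was -0.21 without clone 27 (adjusted p = 0.504). Wnt3 (27.1 and 25.7 against 27.3 and 26.8 CPM), Wnt5a, Wnt8a and Sp5 had adjusted p from 0.517 to 0.853. Wnt3a was at 0 reads in both flox libraries and in clone 48 and at 4 reads in clone 27.

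Of the wider list, 37 of 72 tested genes were called in ExEn, 22 higher and 15 lower, beside 35.5% of all tested genes called, 18.1% higher and 17.4% lower. Wnt7b, a ligand, was at 68.6 and 41.6 CPM in KI against 5.57 and 3.99 CPM in flox (3.53, SE 0.32, edgeR adjusted p = 0.000590), and Wif1, a secreted Wnt-binding inhibitor, at 3.09 and 7.85 against 0.249 and 0.210 CPM (4.54, SE 0.62, adjusted p = 5.67e-05; 3.72 without clone 48). Porcn, the enzyme that attaches the lipid to Wnt proteins, fell from 63.6 and 65.5 CPM to 8.38 and 10.9 CPM (-2.74, SE 0.21, adjusted p = 4.53e-06). Fgf8 had 244 reads in flox and 2 in KI, a ratio of 128 with a 95% counting interval of 34.96 to 1060. All 12 extraembryonic endoderm markers were called lower in KI with a median of -2.79, and 4 of 6 mesenchyme markers were called lower. Of 9 trophoblast markers 5 were called higher and 2 lower, with a median log2 fold change of 0.25. Eomes, on the trophoblast and streak lists, measured 58.9 to 60.2 CPM in flox and 8.24 to 9.58 CPM in KI. Streak and presomitic mesoderm markers summed to 18.6 to 22.8 CPM in KI against 71.5 to 73.3 CPM in flox, neuron markers to 65.1 to 73.6 against 142.5 CPM, mesenchyme markers to 308.7 to 497 against 2045 to 2132 CPM, and roof plate markers to 61.3 to 96.7 against 34.7 to 38.5 CPM. Their part in the member values was not tested.

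The difference of the KI effect between trophectoderm and ExEn was tested in the fit that holds both. It was called for 4 of 9 members, where 35.3% of all tested genes were called. The KI effect was more positive in trophectoderm for Sp5 (1.96, SE 0.44, edgeR adjusted p = 0.0128) and Dkk1 (1.13, SE 0.26, adjusted p = 0.00454), and more negative for Tcf7 (-1.61, SE 0.22, adjusted p = 0.000415) and Axin2 (-0.70, SE 0.18, adjusted p = 0.0113). Sp5 lost this call without flox trophectoderm replicate 2 (1.86, adjusted p = 0.0582) and without KI ExEn clone 27 (1.77, adjusted p = 0.0574), and with no filter on low counts (1.93, adjusted p = 0.0575). Lef1, raised in both cultures, had a difference of 0.86 (SE 0.50, adjusted p = 0.227) that was not called. It was called without flox trophectoderm replicate 1 (1.85, adjusted p = 0.00892) and was 0.20 without flox trophectoderm replicate 2 (adjusted p = 0.708). With the line as a block, the difference of Nkd1, -0.45 (SE 0.33, adjusted p = 0.347), became -0.44 at an adjusted p of 0.0409, which made 5 members called. Without KI ExEn clone 27 it was -0.73 (adjusted p = 0.0108), and without clone 48 it was -0.12 (adjusted p = 0.734).

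In whole embryos Wnt3a was lower and Wnt5a was higher in KI at both stages, and Nkd1 was slightly lower. These 3 genes were the calls at E8.5, 3 of 10 members tested, 1 higher and 2 lower, where 5.46% of all tested genes were called (3.63% higher and 1.83% lower). At E9.5 the same 3 genes were called again together with Axin2, which fell, and Dkk1, which rose, 5 of 10 members where 29.5% of all tested genes were called (14.6% higher and 14.9% lower).

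At E8.5 Wnt3a measured 18.2, 17.2 and 18.6 CPM in the 3 controls and 11.2, 7.74 and 5.10 CPM in the 3 KI embryos (log2 change -1.17, SE 0.20, edgeR adjusted p = 0.00148). The controls lay close to each other and every KI embryo lay below them. At E9.5 it measured 15.2, 13.3 and 13.9 CPM in controls and 8.08, 6.24 and 7.63 CPM in KI (-0.96, SE 0.20, adjusted p = 0.00130), again without overlap. Wnt5a measured 73.4, 64.8 and 64.9 CPM in controls and 85.0, 87.2 and 85.9 CPM in KI at E8.5 (0.35, SE 0.07, adjusted p = 0.00499). At E9.5 it was 58.9, 54.8 and 55.4 CPM in controls and 75.4, 72.6 and 69.5 CPM in KI (0.35, SE 0.07, adjusted p = 0.000822). The size of the Wnt5a difference was small, but the 2 groups did not overlap at either stage, where 24.7% of all tested genes at E8.5 and 44% at E9.5 did not.

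Nkd1 stood at 107, 89.0 and 95.6 CPM in E8.5 controls and at 73.2, 74.6 and 73.8 CPM in KI (-0.40, SE 0.08, edgeR adjusted p = 0.00560). At E9.5 it stood at 83.1, 85.3 and 90.7 CPM against 74.5, 82.4 and 67.3 CPM (-0.22, SE 0.08, adjusted p = 0.0448). The E9.5 libraries of Nkd1 came close to each other, and the call was lost without any 1 of controls 1, 2 and 3 or KI embryos 1 and 3 (adjusted p 0.0558 to 0.213) and in the fit on E9.5 libraries alone (0.0644). Axin2 at E9.5 was 87.0, 89.9 and 88.2 CPM in controls and 72.7, 84.7 and 66.0 CPM in KI (-0.26, SE 0.08, adjusted p = 0.0206), and without KI embryo 3 it was -0.18 (adjusted p = 0.121). At E8.5 Axin2 was 85.5, 79.2 and 84.6 CPM in controls and 65.9, 72.3 and 72.9 CPM in KI (-0.24, SE 0.08, adjusted p = 0.0958). Its groups did not overlap at either stage, nor did those of 24.7% of all tested genes at E8.5 and 44% at E9.5. The E8.5 difference did not pass the test.

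Dkk1 measured 7.15, 7.32 and 7.78 CPM in E9.5 controls and 15.1, 13.2 and 10.9 CPM in KI (0.81, SE 0.18, edgeR adjusted p = 0.00179). At E8.5 it measured 15.8, 9.66 and 13.4 CPM in controls and 16.4, 17.8 and 21.6 CPM in KI (0.53, SE 0.17, adjusted p = 0.0780). Wnt8a, a ligand of the early streak, was 2.22, 0.737 and 0.748 CPM in E8.5 controls and 4.65, 2.25 and 3.41 CPM in KI (1.49, SE 0.49, adjusted p = 0.0804). Neither gene overlapped between the E8.5 groups, nor did 24.7% of all tested genes, and control 1 came close to the lowest KI embryo for both. Without control 1 both Dkk1 (0.68, adjusted p = 0.0471) and Wnt8a (2.20, adjusted p = 0.0266) passed the test at E8.5, which made 5 calls. Without control 2 they were 0.34 (adjusted p = 0.27) and 1.21 (adjusted p = 0.213). Both also passed with the number shared by titles as a block (0.54, adjusted p = 0.0415, and 1.58, adjusted p = 0.0322), and KI lay above control in each of the 3 same-numbered pairs for both genes. The labels do not say what these numbers mark. DESeq2 also called Wnt8a (1.49, adjusted p = 0.0497). At E9.5 Wnt8a was 0.857, 0.584 and 1.12 CPM in controls and 0.703, 0.520 and 0.165 CPM in KI (-0.87, SE 0.55, adjusted p = 0.247).

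Lef1 and Tcf7 were not called in embryos. Lef1 was 59.8 to 68.7 CPM in E8.5 controls and 66.3 to 69.3 CPM in KI (0.05, SE 0.08), and Tcf7 was 51.5 to 55.4 against 48.6 to 54.1 CPM (-0.07, SE 0.09). At E9.5 their log2 fold changes were -0.03 and -0.05 (SE 0.08 and 0.09). Adjusted p over both genes and stages ran from 0.735 to 0.794. Sp5 overlapped between groups at both stages (28.1 to 44.9 against 30.6 to 34.6 CPM at E8.5, 14.02 to 16.5 against 13.2 to 24.8 CPM at E9.5), with log2 fold changes of -0.13 (SE 0.20, adjusted p = 0.799) and 0.31 (SE 0.21, adjusted p = 0.292). The E9.5 value passed the test without KI embryo 3 (0.52, adjusted p = 0.0235) and was 0.09 without KI embryo 2 (adjusted p = 0.786). Wnt3 was 2.71 to 3.10 CPM in E8.5 controls and 3.78 to 4.00 CPM in KI (0.43, SE 0.20, adjusted p = 0.248).

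None of the 10 members passed the test of a difference between the stages (edgeR, 6.63% of all tested genes called, 3.39% positive and 3.24% negative), and 2 did at an unadjusted p under 0.05. These were Wnt8a (-2.36, SE 0.73, unadjusted p = 0.00429, adjusted p = 0.0595) and Wnt3 (-0.64, SE 0.28, unadjusted p = 0.0312, adjusted p = 0.177). DESeq2 called 1 member, Wnt8a (-2.39, adjusted p = 0.0249), which edgeR also called without control 1 of E8.5 (-3.07, adjusted p = 0.0151) or KI embryo 1 of E9.5 (-2.79, adjusted p = 0.0374), with the number shared by titles as a block (-2.49, adjusted p = 0.0252) and with no filter on low counts (-2.39, adjusted p = 0.0355). Without KI embryo 3 of E9.5 it was -1.97 (adjusted p = 0.123). For Wnt3a and Wnt5a the differences were 0.21 (SE 0.28) and 0.00 (SE 0.10).

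In the wider list, 13 of 78 tested genes were called at E8.5 (5 higher, 8 lower) and 31 of 78 at E9.5 (13 higher, 18 lower), beside 5.46% and 29.5% of all tested genes. The ligand Wnt11 was the most raised at E8.5, at 13.9, 11.9 and 14.5 CPM in KI against 5.36, 5.94 and 5.75 CPM in controls (1.24, SE 0.18, edgeR adjusted p = 0.000277), and was raised at E9.5 (1.14, SE 0.17, adjusted p = 7.3e-05). Frzb, a secreted Wnt-binding inhibitor, rose at E8.5 (0.72, SE 0.14, adjusted p = 0.00596) and its relative Sfrp5 at E9.5 (1.67, SE 0.17, adjusted p = 1.63e-06). Notum fell at E8.5 from 17.96, 16.1 and 16.8 CPM to 6.13, 9.18 and 8.73 CPM (-1.08, SE 0.21, adjusted p = 0.00413), as did Wnt7b (-0.95, SE 0.16, adjusted p = 0.00158). Wnt16 fell at E9.5 (-2.97, SE 0.48, adjusted p = 0.000143; -3.68 without KI embryo 1). Cer1, a secreted inhibitor of Nodal, BMP and Wnt proteins, had 47 reads in E9.5 controls and 0 in KI, so it was at least 14.7-fold lower when 3 reads over the KI group are allowed.

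Markers of other cell types also differed between the embryo groups. At E9.5, 6 of 7 neuron markers and 6 of 7 neural progenitor markers were called lower in KI, and all 5 heart markers were called higher. The neural progenitor markers summed to 438 to 528 CPM in KI against 732 to 966 CPM in controls. Blood markers summed to 579 to 2950 CPM in KI and 3130 to 8644 CPM in controls, with 1 of 6 called. At E8.5 the blood sum was 114 to 212 CPM in KI and 696 to 1439 CPM in controls, with 0 of 6 called, and the streak and presomitic mesoderm sum overlapped (147 to 194 against 153 to 240 CPM), with 0 of 9 called. Of its genes, Msgn1 (2.72 to 4.35 against 4.54 to 5.21 CPM) and Cdx4 (34.1 to 42.8 against 44.4 to 73.2 CPM) did not overlap between the E8.5 groups. At E9.5 that sum was 48.9 to 70.1 CPM in KI and 47 to 79.1 CPM in controls, with Tbx6 (2.68 to 4.96 against 5.03 to 11.02 CPM) and Msgn1 (0.160 to 0.820 against 1.04 to 2.91 CPM) called lower and Cdx4 (11.15 to 16.9 against 5.43 to 9.23 CPM) called higher. Trophoblast markers summed to 943 to 1116 CPM in KI against 629 to 762 CPM in controls at E8.5, and to 586 to 622 against 191 to 398 CPM at E9.5. Neural progenitor markers at E8.5 (409 to 460 against 507 to 538 CPM) and extraembryonic endoderm markers at E9.5 (1022 to 1173 against 746 to 888 CPM) did not overlap either. The same holds at E8.5 for pluripotency markers (76.3 to 98.7 against 58.8 to 62.5 CPM). Of the roof plate markers, Msx1 was called higher in KI at both stages (149.7 to 159.6 against 111.3 to 125.8 CPM at E8.5, 117.7 to 146.7 against 105.8 to 110.4 CPM at E9.5), Wnt1 was called lower at E8.5 (10.6 to 13.7 against 15.5 to 21.2 CPM) and Lmx1a lower at E9.5 (4.44 to 8.25 against 9.31 to 12.2 CPM). Lmx1a at E8.5 measured 4.696 to 5.01 CPM in KI and 5.6 to 8.11 CPM in controls and was not called. The part of these cell types in the Wnt values was not tested.

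In the ESC and EB course flox has 1 library a day, so a test is possible only for a genotype effect averaged over the 3 days, and no member passed it (edgeR, 0 of 10, where 0.73% of all tested genes were called, 0.398% higher and 0.332% lower). At the level of single genes, 2 members had an unadjusted p under 0.05, Wnt3a (-2.21, SE 0.70, unadjusted p = 0.0136, adjusted p = 0.191) and Wnt3 (1.13, SE 0.46, unadjusted p = 0.0396, adjusted p = 0.283). DESeq2 called both of these and no other member, at adjusted p of 0.0465 and 0.0488. With libraries of the same line as a random block, Wnt3a was called (-2.15, adjusted p = 0.00732). Leaving out the flox library of day 4 made Wnt3 (2.40, adjusted p = 0.0195) and Wnt8a (5.4, adjusted p = 0.0163) pass and turned Wnt5a from -1.25 to 1.06 (adjusted p = 0.0747). Leaving out the flox library of day 10 made Wnt5a pass (-2.69, adjusted p = 0.0242), and brought Wnt3 to 0.4 (adjusted p = 0.569) and Wnt3a to -1.42 (adjusted p = 0.217).

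Single days are given as values without a test, and a gene was counted when both clones lay at least 2-fold from the flox library in the same direction, on log2(CPM + 0.5), with at least 1 CPM in 1 of the 3 libraries. In ESCs 1 of 7 members counted, with 7.86% of all genes counted (4.94% above and 2.92% below). Wnt8a was at 0.185 CPM in flox, which is 3 reads, and at 10.4 and 6.72 CPM in clones 27 and 48. Axin2 was at 127.5 CPM in flox and 114.9 and 94.9 CPM in KI, Tcf7 at 72.9 and 60.0 and 60.9 CPM, and Sp5 at 80.6 and 117 and 75.6 CPM. These 3 members, high in flox ESCs, lay within 2-fold of flox in both clones. Notum of the wider list, also known as a feedback target of the pathway, was higher still in flox ESCs, at 281.6 CPM (86.9 RPKM), and lay at 37.8 and 46.5 CPM in the clones, below flox by the same rule.

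At EB day 4, 4 of 10 members were below flox by the 2-fold rule and none above, where 5.66% of all genes were counted, 4.09% below and 1.57% above. Wnt5a was at 83.9 CPM in flox and at 10.8 and 9.75 CPM in the clones. Nkd1 was at 41.1 CPM in flox and 7.88 and 7.61 CPM in the clones. Wnt8a was at 28.9 against 7.65 and 9.10 CPM, and Wnt3a at 8.78 against 1.88 and 2.33 CPM. For these 4 genes the clones lay close together and far from the flox library. Lef1 lay just outside the rule, at 77.4 CPM in flox and 36.3 and 40.2 CPM in the clones (log2 ratios -1.08 and -0.94). Wnt3 (84.6 against 87.0 and 92.0 CPM) and Sp5 (138.5 against 146 and 148 CPM), both at their highest over all stages, were nearly level with flox.

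At EB day 10, 1 of 9 members was above flox by the rule and 1 below, with 7.36% of all genes counted, 3.54% above and 3.82% below. Wnt3 was at 2.31 CPM in flox and 15.1 and 11.7 CPM in the clones. Wnt3a had 41 reads in flox (1.58 CPM) and 2 and 0 reads in the clones. Wnt5a changed sides between the days, since at day 10 flox was at 98.5 CPM and the clones at 257 and 192 CPM, of which clone 48 stayed just inside 2-fold (log2 ratios 1.38 and 0.96). Nkd1 had reached 68.1 CPM in flox and 72.2 and 46.0 CPM in the clones. Lef1 (18.7 against 71.7 and 31.2 CPM), Dkk1 (14.8 against 35.7 and 16.1 CPM) and Axin2 (21.3 against 37.9 and 24.8 CPM) were all higher in clone 27 than in clone 48.

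**Figure D4:**
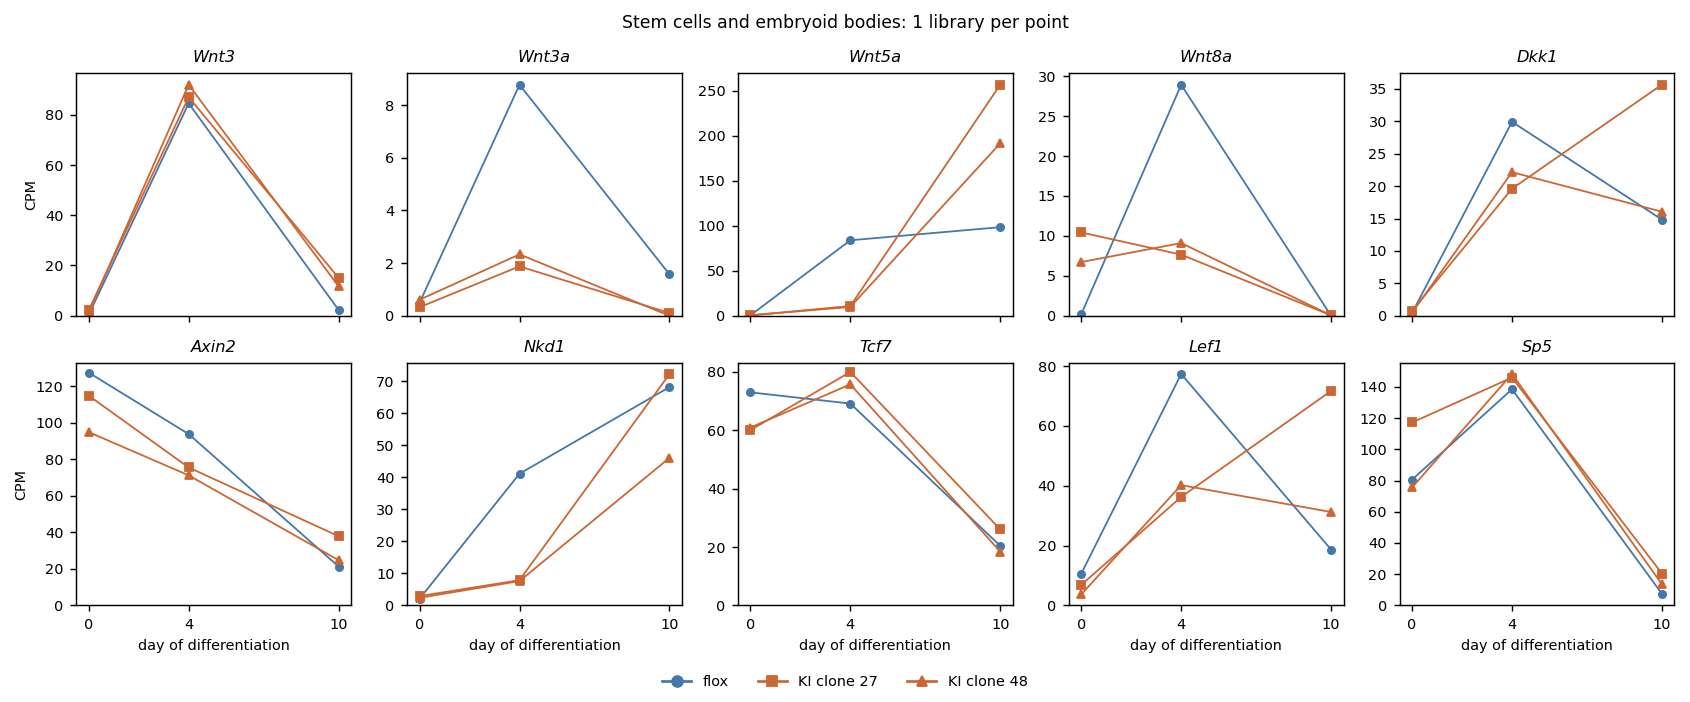
CPM of the 10 genes in ESCs (day 0) and EBs of days 4 and 10, with 1 library per point (blue flox, orange squares KI clone 27, orange triangles KI clone 48; each y axis starts at 0). At day 4 both clones lie far below flox for Wnt3a, Wnt5a, Wnt8a and Nkd1 and beside it for Wnt3 and Sp5, and at day 10 both clones lie above flox for Wnt5a.

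In the wider list, 17 of 69 genes with at least 1 CPM lay below flox at EB day 4 by the same rule and 1 above. Of all genes 4.09% lay below and 1.57% above. In ESCs 3 of 48 lay above and 4 below (4.94% and 2.92% of all genes). At EB day 10, 5 of 70 lay above and 9 below (3.54% and 3.82% of all genes). Of the 78 tested over the course 2 were called, beside 0.73% of all tested genes. Cer1 was lower, with 271 reads in flox EBs of day 4 and at most 1 in either clone. It was at 2 reads or fewer in all other libraries of the course, so that call rests on 1 flox library (and was lost without either day 4 KI library, adjusted p 0.2274 and 0.0647, and under DESeq2, 0.465). The co-receptor gene Lrp5 was higher (0.43, SE 0.07, edgeR adjusted p = 0.0473), a call lost in 11 of 15 alternatives. Beside the day 4 values, markers of primitive streak and presomitic mesoderm summed to 1102 CPM in flox and 844 to 948 CPM in KI. Within that list Msgn1 (25.98 against 2.21 to 2.29 CPM), Mesp1 (38.7 against 6.85 to 7.98 CPM) and Tbx6 (21.7 against 2.86 to 4.67 CPM) lay far below flox in both clones, while Eomes (288 against 314 to 362 CPM) and Fgf8 (107.9 against 125.5 to 143 CPM) lay above it. Mesenchyme markers summed to 198 CPM in flox against 72.9 to 81.4 CPM in KI, trophoblast markers to 2244 against 852 to 917 CPM, extraembryonic endoderm markers to 953 against 455 to 536 CPM, and pluripotency markers to 821 against 1397 to 1455 CPM. At day 10 heart markers summed to 1515 CPM in flox and 136 to 201 CPM in KI, and extraembryonic endoderm markers to 2499 CPM against 5508 to 5673 CPM. Pluripotency markers summed at day 10 to 113 CPM in flox and 244 to 381 CPM in KI, and trophoblast markers to 779 against 1180 to 1817 CPM. Blood markers summed to 480 against 316 to 334 CPM. Mesenchyme markers were at 11480 CPM in flox and differed between the clones, at 5052 to 11180 CPM. Their part in the member values was not tested.

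**Figure D5:**
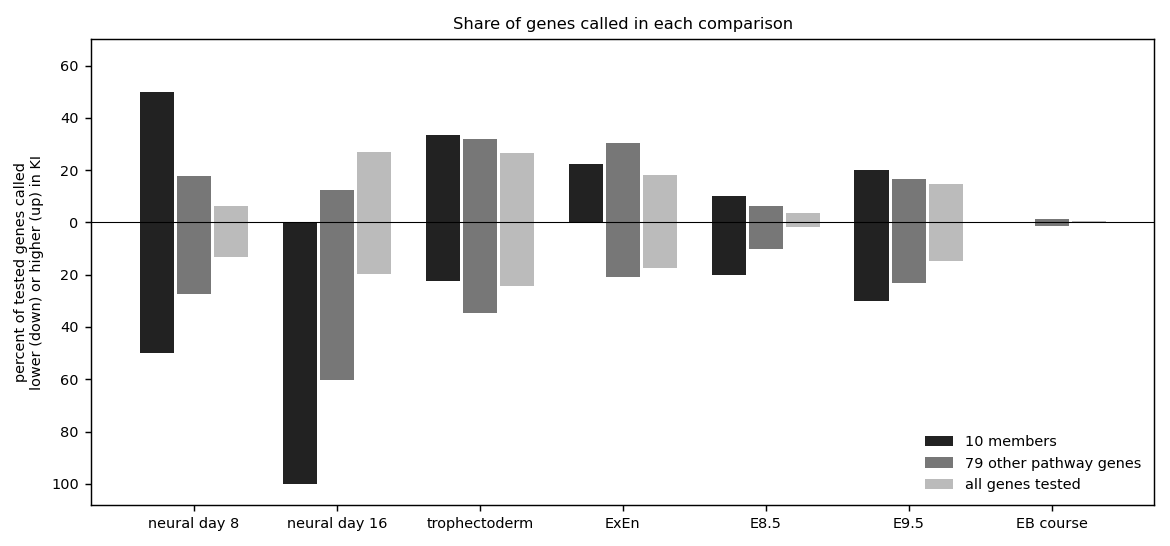
Percent of tested genes called higher (up) or lower (down) in KI in 7 comparisons, for the members (black), the 79 other pathway genes (grey) and all tested genes (light grey). At neural day 16 the members' bar reaches 100% downward while all tested genes have 19.7% lower and 27.1% higher. In trophectoderm 55.6% of members, 66.7% of the other pathway genes and 50.9% of all tested genes are called in either direction.

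Set side by side, the 7 comparisons gave no member the same call throughout. Wnt3a was called higher in KI at neural day 8 and lower at neural day 16 and at E8.5 and E9.5. Wnt5a was called higher at neural day 8 and in both embryo stages and lower at neural day 16. Axin2 was called lower at both neural days and at E9.5 and higher in ExEn, and Nkd1 lower at both neural days and both embryo stages. Lef1 was called lower at both neural days and higher in trophectoderm and ExEn, Tcf7 lower at both neural days and in trophectoderm, and Sp5 higher at neural day 8 and in trophectoderm and lower at neural day 16. Dkk1 was called higher in trophectoderm and at E9.5. Wnt3 was called higher at neural day 8 and lower at neural day 16, and Wnt8a lower in trophectoderm. These are the calls with all libraries of each fit.

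As a description of their pattern, the members' group means of log2(CPM + 0.5) were correlated over the 18 groups. The KI culture groups share clones 27 and 48, so the 18 groups are not independent, and depth differs between libraries. Nkd1 and Wnt5a had the highest Pearson correlation among the 45 pairs (0.88), followed by Sp5 and Tcf7 (0.87), Sp5 and Axin2 (0.78) and Tcf7 and Axin2 (0.78). The lowest was that of Sp5 and Nkd1 (-0.35). Of 16595 genes compared, the nonmembers most like Sp5 were Mtrr (0.958), Ddx21 (0.958) and Utp4 (0.955), those most like Wnt3a were Fgf15 (0.932), 3000002C10Rik (0.925) and Abitram (0.893), those most like Lef1 were Slc35a4 (0.917), Ccdc137 (0.894) and Abracl (0.887), and those most like Axin2 were Wrap53 (0.894), Twnk (0.892) and Rpgrip1 (0.891).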

How the data were processed

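Whole read counts per RefSeq transcript were deposited for each library, and the RPKM values deposited beside them equal the count over transcript length and 1 denominator per library (largest relative deviation 5.4e-12). The submitters' processing notes list bcl2fastq, STAR, Bowtie2 and SICER 1.1 and the build mm9, with no roles; the counter and its use of strand are not given in the sources used here. RNA was poly(A)-selected before library construction, per the labels' protocols. Of 100 series samples, 63 are not analysed here.

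The transcript with the most reads stood for each gene. Of 29082 transcripts, 646 had no symbol and were kept as entries of their own. Those were left out when genes with similar patterns were listed. Counts were normalized by TMM, filtered with filterByExpr and tested with edgeR 4.0.16 (robust quasi-likelihood, R 4.3.3), with Benjamini-Hochberg adjustment over all tested genes and a threshold of 0.05. Separate fits held the neural, the trophectoderm and ExEn, the embryo and the ESC and EB libraries (the last with day as a factor). The written plan for trophectoderm named the ESC and EB libraries by mistake, and the 8 trophectoderm and ExEn libraries were fitted, as planned for ExEn. CPM values are TMM-scaled over the 37 libraries. The tests were tried on simulated counts first.

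Alternatives were RLE scaling, no filter, transcript sums, DESeq2 1.42.0, fits on the compared groups alone, each library left out in turn, and blocks (limma 3.58.1 for a random block). Libraries were paired by the clone number in the labels, which names the same KI line at both neural days and in trophectoderm and ExEn. Deviations of same-numbered libraries correlated at 0.169 and 0.121 for KI (flox 0.035 and 0.006); with 2 libraries a group, other-numbered ones mirror these values, and line and shared handling cannot be told apart.

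The wider list and the markers, like the members, were chosen with earlier results of these data known. All members were named, and of the wider list the 2 genes with the largest called changes in each direction per comparison. Tcf7l1 and Tcf7l2, and Notum in ESCs, were named outside this rule. Similar patterns were the 3 highest Pearson correlations for Axin2, Sp5, Lef1 and Wnt3a among genes reaching a group mean of 1 CPM. The floor of 3 reads (0.0501 to 0.159 CPM without TMM scaling) and the 95% intervals (exact, for a ratio of counts) cover counting error only.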

Additional observations from a re-analysis of the deposited data

Results flagged for a closer look

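The KI effect differed between the neural days for all 8 tested members (interaction in edgeR, n = 2 per group). Day 16 minus day 8 was -0.74 for Axin2, -1.38 for Lef1 (SE 0.29, adjusted p = 0.00331), -1.57 for Nkd1 (SE 0.24, adjusted p = 0.000615), -5.02 for Sp5 (adjusted p = 9.54e-06), -2.21 for Tcf7 (SE 0.18, adjusted p = 5.49e-06), -2.13 for Wnt3, -5.35 for Wnt3a and -3.22 for Wnt5a on the log2 scale. In both clones Sp5, Wnt3, Wnt3a and Wnt5a lay above both flox libraries at day 8 and below both at day 16, as did 8.67% of all tested genes.

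The KI effect differed between trophectoderm and ExEn for 4 members (interaction in edgeR). Trophectoderm minus ExEn was -0.70 for Axin2, 1.13 for Dkk1, 1.96 for Sp5 and -1.61 for Tcf7. Axin2 rose in ExEn and was not called in trophectoderm, whereas Dkk1, Sp5 and Tcf7 were called in trophectoderm and not in ExEn.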

How the results depend on the processing

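Of 43 calls of a member in a comparison, 31 held under every alternative run, 12 were lost in at least 1 and 0 changed sign. Of the other pairs, 14 were called only in an alternative. Members called with a library left out numbered 4 to 6 at neural day 8 (8 with all), 7 to 8 at day 16, 3 to 5 in trophectoderm, 1 to 3 in ExEn, 3 to 5 at E8.5, 4 to 5 at E9.5, 3 to 5 for trophectoderm minus ExEn, 0 to 1 for E9.5 minus E8.5 and 0 to 2 in the EB course. DESeq2 called 1 member in ExEn, 1 for E9.5 minus E8.5 and 2 in the EB course, and no filter on low counts gave 1 for E9.5 minus E8.5. In trophectoderm Wnt5a ranged from -0.70 to 0.36 with a library left out. In the EB course Wnt5a ranged from -2.69 to 1.06 and Wnt8a from -1.62 to 5.4 with a library left out, through -0.09 without flox day 10 and -0.02 without KI clone 27 of day 0, and Wnt8a was -1.58 without the ESC libraries. The cause was not tested.

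With the replicate block, in which the line or the number shared by titles pairs the libraries, 5 members were called at E8.5 (Dkk1 and Wnt8a added), 5 at E9.5, 1 for E9.5 minus E8.5 (Wnt8a), 5 for trophectoderm minus ExEn (Nkd1 added), 8 for the neural difference and 1 in the EB course (Wnt3a). Deviations of same-numbered embryos correlated at 0.155, 0.172 and 0.063 at E8.5 and between -0.014 and 0.066 at E9.5. The random block of the EB course had a correlation of -0.263 between libraries of a line.

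Over all genes, calls in the EB course went from 121 to 777 (DESeq2), 2980 (random block) and 26 to 332 with a library left out, each of the 9 libraries moving the count by over 1.5 times. At E8.5 they went from 843 to 1304 (block) and to 488, 363, 546 and 377 (without control 1, control 3, KI embryo 1 and KI embryo 3). They went from 3202 to 1950, 1896 and 2111 at neural day 8 (without flox 1, flox 2 and clone 48), from 5450 to 3621 for the neural difference (without flox 2 of day 8) and from 5520 to 3641 and 3651 in ExEn (without flox 1 and 2). For E9.5 minus E8.5 they went from 1024 to 1547 (block), 654 (without control 3 of E8.5) and 607 (without KI embryo 2 of E9.5). The random line block and the set without day 0 listed for trophectoderm were not run, since that comparison has no day 0 libraries. With 1 flox library per EB day, values of single days have no replicate check, and a member at 3 reads or fewer was not detectable at this depth.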
